A study of Mus musculus with 8 samples.

Results

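Ribosome biogenesis genes and Myc form a module of 48 named genes, and they were compared here between effector CD8 T cells in which Blimp-1 was conditionally deleted and those of WT littermates. The genes were listed by name with earlier results of these data known, and each gene was represented by its brightest probe, chosen by the mean log2 signal over all 8 arrays. A probe carrying the gene's symbol was found for 41 of the 48, and 37 of these passed the filter on dim probes (a mean above the median of all probes), out of 8095 genes that passed it in the whole series. The first group, CKO, consisted of 4 samples from Blimp-1flox/flox mice carrying a GranzymeB-cre transgene, and the second, WT, of 4 samples from WT littermates. Both groups were infected with LCMV-Armstrong, a virus strain cleared in an acute infection, at 200000 PFU, and spleen cells were taken on day 8 and sorted for CD8 and binding of DbGP33-41 or DbNP396-404 tetramers, reagents that pick out T cells specific for viral peptides. Granzyme B is made by T cells once they are activated, so this Cre acts after activation and in any other cell that makes granzyme B. The sources used here do not give age, sex or strain, nor whether each sample came from a separate animal, so the spread behind each p-value is that among these samples and may be technical.

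Ribosomes are assembled in the nucleolus, where RNA polymerase I transcribes the ribosomal RNA precursor. Small nucleolar ribonucleoproteins of the box C/D and box H/ACA types then methylate and pseudouridylate it, and assembly factors fold, cut and export the small and large subunits. Myc is a transcription factor known to raise transcription of many of these genes, and activated T cells use this program to grow before they divide. Blimp-1, encoded by Prdm1, is a transcriptional repressor whose known targets include Myc in B cells that become plasma cells.

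The deposited table held 24048 probes, of which 11991 were tested, and the correlation of 2 arrays was 0.972 to 0.993 for the same group and 0.958 to 0.981 for different ones. Prdm1 had 2 probes that went in opposite directions, 1 at 8.65 to 9.27 in CKO against 5.59 to 6.11 in WT, the other at 6.29 to 6.65 in CKO against 7.51 to 8.07 in WT (log2 signal). The sources used here do not place these probes relative to the deleted part, so neither checks the labels, and CKO and WT mean the samples labelled so throughout. The CD8 T cell genes Cd8b1, Cd3d, Cd3e and Cd3g were bright on all arrays, while Cd8a had no named probe. Their summed linear signal was 47324 to 54625 in CKO and 55825 to 60829 in WT, without overlap. In CKO against WT, Cd8b1 averaged 14.311 against 14.644 and Cd3e 12.851 against 13.235. Cd3g averaged 12.876 against 12.934, while Cd3d was slightly higher in CKO, 13.947 against 13.885. No single one of them passed the test (limma adjusted p = 0.0898, 0.0982, 0.831 and 0.784 in this order). A control probe for 18S ribosomal RNA was lower in the samples numbered 2 (10.8 in CKO2, and 12.7 to 12.9 in the other CKO samples; 11.2 in WT2, and 12.5 to 13.0 in the other WT samples). Erythroid genes summed to 13848 in CKO1 and to between 234 and 447 in the other CKO samples, against 4579 to 14000 in WT.

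Many of the ribosome biogenesis genes were higher in CKO cells, and Myc itself did not pass the test. Of the 37 genes tested, 14 rose, 0 fell and 23 did not pass limma's moderated test at an adjusted p below 0.05. Thus 37.8% of the 37 rose, where by the same rule 4.73% of all 8095 genes tested rose and 3.04% fell. No gene of the 37 fell at an unadjusted p below 0.05 either, and 25 were higher at that level. The share of all genes at that level was not counted, so this and the later unadjusted counts stand without a background. The 4.73% and 3.04% refer to the adjusted level. All 37 differences (CKO minus WT, log2 signal) were above 0, with a median of 0.39, a 1.31-fold difference, where the median over all genes was -0.015. With the 4 genes under the filter included, the median over 41 was 0.31. All 4 CKO samples lay above all 4 WT samples for 20 of the 37, among them the 14 that rose, against 9.19% of all genes. The module's genes were mostly bright: 31 of the 37 were brighter than the 75th percentile of probes and 13 of these rose, against 5.57% of the 4558 genes that bright. All 37 had both group means above the filter. In a mixed sample, fewer cells of a type and less RNA per cell cannot be told apart. The changes were small: Rrp12 alone exceeded 2-fold.

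**Figure D1:**
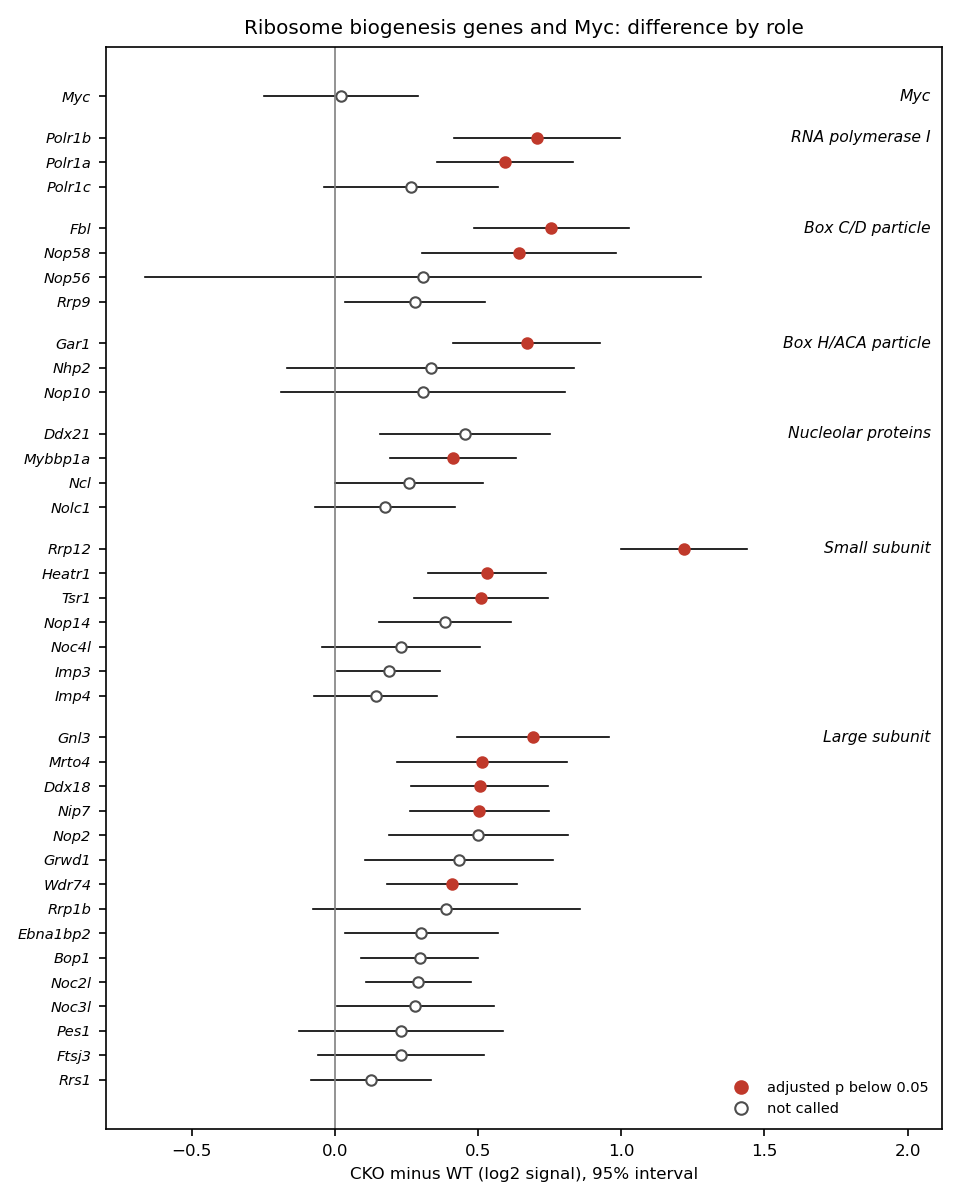
Difference between CKO and WT for each of the 37 tested genes, grouped by role (x axis, CKO minus WT in log2 signal; points, limma estimates; lines, 95% intervals; filled points, adjusted p below 0.05). Every point lies right of 0, from 0.02 for Myc to 1.22 for Rrp12, and the 14 filled points are spread over all groups but Myc.

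**Figure D2:**
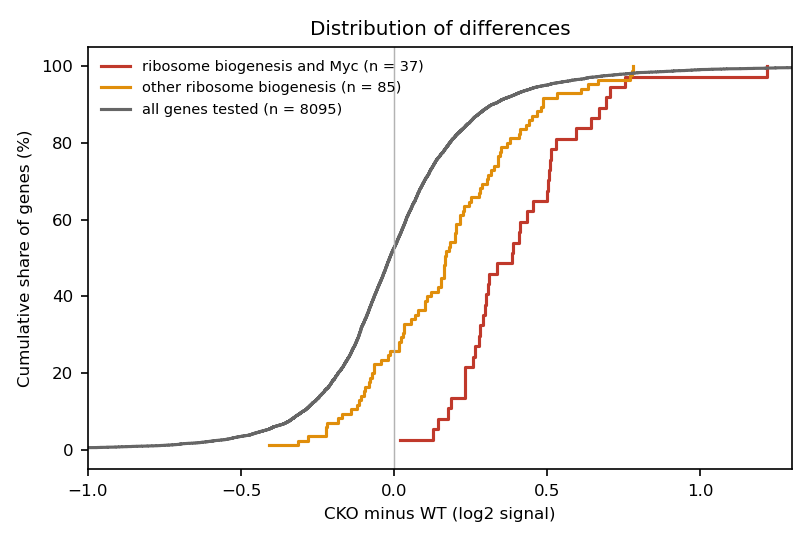
Distribution of the differences between CKO and WT (x axis, log2 signal) over the 37 genes, over 85 other ribosome biogenesis genes and over all 8095 genes tested. The 37 genes centre on a median of 0.39, the 85 other biogenesis genes on 0.17 and all genes on -0.015.

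Myc signal did not differ detectably between the groups. Its signal was 6.55, 6.30, 6.50 and 6.71 in CKO1 to CKO4, against 6.24, 6.54, 6.55 and 6.64 in WT1 to WT4. CKO4 was the highest sample and WT1 the lowest, the groups overlapped otherwise, and the difference was 0.02 on the log2 scale (SE 0.12), or 1.01-fold (95% interval 0.841 to 1.22, limma adjusted p = 0.951). That interval leaves room for a change in signal of up to about 1.22-fold. The probe was dim, with a mean of 6.50 where the filter stood at 6.12. These values therefore limit its signal and not the amount of transcript. A dimmer second probe, under the filter, differed by -0.05. Over the 18 alternatives that fitted Myc, the difference lay between -0.064 and 0.11.

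RNA polymerase I subunits were higher in 2 of 3 cases. Polr1b, the second largest subunit, had 7.97, 8.24, 8.07 and 7.99 in CKO1 to CKO4, against 7.33, 7.72, 7.17 and 7.23 in WT1 to WT4. All CKO samples were above all WT samples, by 0.71 on the log2 scale (SE 0.13), or 1.63-fold (95% interval 1.33 to 2.00, limma adjusted p = 0.011). Polr1a, the largest and catalytic subunit, had 8.98, 8.74, 8.65 and 8.90 in CKO1 to CKO4, against 8.22, 8.35, 8.06 and 8.26 in WT1 to WT4. Again the groups did not overlap, and the difference was 0.59 on the log2 scale (SE 0.11), or 1.51-fold (95% interval 1.28 to 1.78, limma adjusted p = 0.00981). Polr1c, a subunit shared with RNA polymerase III, differed by 0.27 (SE 0.14, limma adjusted p = 0.316), and its groups overlapped.

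Box C/D ribonucleoproteins, which carry the methylation of ribosomal RNA, were represented by 4 genes, of which 2 rose. Fbl, fibrillarin, the methyltransferase of these particles, had 11.55, 11.34, 11.65 and 11.56 in CKO1 to CKO4, against 10.63, 10.70, 10.67 and 11.08 in WT1 to WT4. WT4 was the highest WT sample and still below every CKO sample, and the difference was 0.76 on the log2 scale (SE 0.12), or 1.69-fold (95% interval 1.40 to 2.04, limma adjusted p = 0.00612). Nop58, a core protein of the same particles, had 10.47, 10.89, 11.02 and 10.73 in CKO1 to CKO4, against 10.11, 9.82, 10.17 and 10.43 in WT1 to WT4. CKO1 was close to WT4 without overlapping it, with 0.64 on the log2 scale (SE 0.15), or 1.56-fold (95% interval 1.24 to 1.98, limma adjusted p = 0.0328). Its partner Nop56 had 8.32, 6.88, 8.45 and 8.43 in CKO1 to CKO4, against 8.02, 6.49, 8.13 and 8.22 in WT1 to WT4. Sample 2 was the lowest by far in both groups, and the unpaired difference was 0.31 (SE 0.44, limma adjusted p = 0.765). Within each sample number, CKO exceeded WT by 0.30, 0.39, 0.32 and 0.22. Rrp9, which joins the U3 particle, differed by 0.28 (SE 0.11, limma adjusted p = 0.176).

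Box H/ACA ribonucleoproteins, which carry pseudouridylation, showed 1 called gene of 3 tested. Gar1, a core protein, had 11.04, 10.88, 11.22 and 10.97 in CKO1 to CKO4, against 10.27, 10.19, 10.38 and 10.59 in WT1 to WT4. The groups did not overlap, and the difference was 0.67 on the log2 scale (SE 0.12), or 1.59-fold (95% interval 1.33 to 1.90, limma adjusted p = 0.00817). Nhp2, another core protein, had 10.65, 9.79, 10.59 and 10.65 in CKO1 to CKO4, against 10.10, 9.58, 10.40 and 10.26 in WT1 to WT4. Here CKO2 and WT2 were the lowest of their groups, and the difference was 0.34 (SE 0.23, limma adjusted p = 0.469). Nop10, the smallest core protein, had 11.49, 10.73, 11.63 and 11.57 in CKO1 to CKO4, against 11.18, 10.53, 11.28 and 11.20 in WT1 to WT4. It showed the same low samples numbered 2, in which the 18S probe was low too, and differed by 0.31 (SE 0.22, limma adjusted p = 0.511). With the sample number as a block, the adjusted p was 0.0536 for Nop56, 0.061 for Nhp2 and 0.0545 for Nop10, none past 0.05. Whether the 18S signal has a part in these values was not tested. Dkc1, the pseudouridine synthase of these particles, had no named probe.

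**Figure D3:**
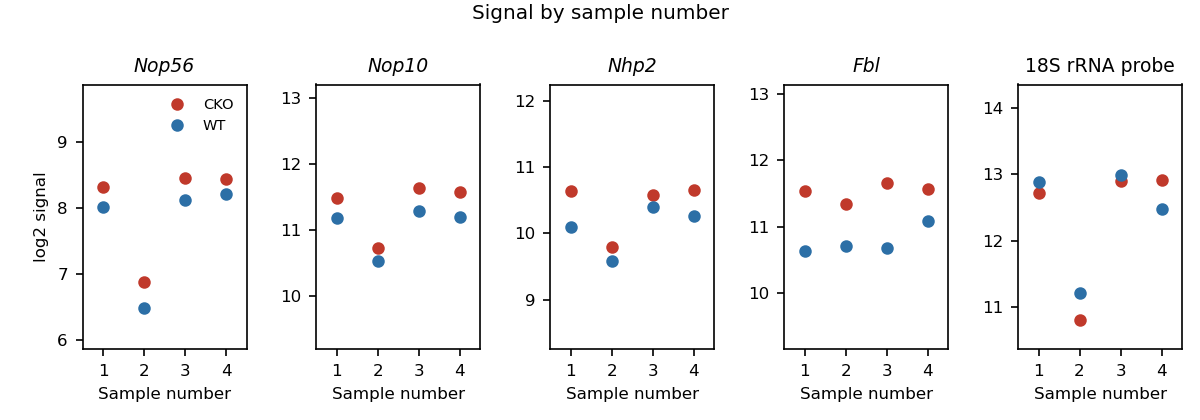
Signal of Nop56, Nop10 and Nhp2 of Fbl and of the 18S ribosomal RNA probe in each sample (y axis, log2 signal; x axis, sample number; CKO and WT as separate points). Sample 2 is low in both groups for Nop56, Nop10, Nhp2 and the 18S probe, and for the 4 genes CKO lies above WT at each number.

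Among 4 tested genes for nucleolar proteins, 1 rose. Mybbp1a, a Myb-binding nucleolar protein that takes part in ribosomal RNA processing, averaged 7.59 ± 0.06 in CKO and 7.18 ± 0.15 in WT (SD, n = 4 each). Its groups did not overlap, with a difference of 0.41 on the log2 scale (SE 0.10), or 1.33-fold (95% interval 1.14 to 1.55, limma adjusted p = 0.0346), and its dimmer second probe rose by 0.56 (limma adjusted p = 0.00845). Ddx21, an RNA helicase, differed by 0.45 (SE 0.13, limma adjusted p = 0.076), and CKO2 lay just below WT1. Nucleolin, Ncl, differed by 0.26 and Nolc1, a chaperone of small nucleolar ribonucleoproteins, by 0.18, without passing the test. Npm1 was under the filter, with a difference of -0.10, and Npm3 had no named probe.

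Small subunit factors held the largest change of the module. Rrp12, which takes part in subunit maturation and export (known mainly from yeast), had 10.52, 10.18, 10.44 and 10.32 in CKO1 to CKO4, against 9.11, 9.07, 9.21 and 9.21 in WT1 to WT4. The lowest CKO sample was well above the highest WT sample, and the difference was 1.22 on the log2 scale (SE 0.10), or 2.33-fold (95% interval 2.00 to 2.71, limma adjusted p = 0.00026). Heatr1, the UTP10 protein of the small subunit processome, had 10.33, 10.26, 10.33 and 10.20 in CKO1 to CKO4, against 9.74, 9.86, 9.59 and 9.80 in WT1 to WT4. The groups were tight and apart, with 0.53 on the log2 scale (SE 0.09), or 1.44-fold (95% interval 1.25 to 1.67, limma adjusted p = 0.00856). Its second probe rose as well, by 0.50 (limma adjusted p = 0.0268), while 1 further probe differed by -0.01. Tsr1, a late assembly factor of the small subunit, had 8.38, 8.58, 8.48 and 8.36 in CKO1 to CKO4, against 7.85, 7.96, 7.79 and 8.15 in WT1 to WT4. All CKO samples were again the higher ones, with 0.51 on the log2 scale (SE 0.11), or 1.42-fold (95% interval 1.21 to 1.67, limma adjusted p = 0.0179). Nop14, a processome protein, had 9.19, 9.11, 9.27 and 9.42 in CKO1 to CKO4, against 9.05, 8.78, 8.81 and 8.81 in WT1 to WT4. CKO stayed above WT throughout, but the difference of 0.39 (SE 0.10, limma adjusted p = 0.0551) missed the threshold. The remaining tested genes of this role, Noc4l, Imp3 and Imp4, differed by 0.23, 0.19 and 0.14 without passing.

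Large subunit factors made up the biggest role group, and 5 of the 15 tested rose. Gnl3, nucleostemin, a nucleolar GTPase found in proliferating cells, had 10.04, 10.13, 10.54 and 10.36 in CKO1 to CKO4, against 9.51, 9.60, 9.53 and 9.66 in WT1 to WT4. CKO3 was the highest sample, no CKO sample reached down to WT, and the difference was 0.69 on the log2 scale (SE 0.12), or 1.61-fold (95% interval 1.34 to 1.94, limma adjusted p = 0.00803). Mrto4, related to the ribosomal stalk protein P0, had 8.59, 8.95, 8.95 and 8.53 in CKO1 to CKO4, against 8.17, 8.05, 8.27 and 8.48 in WT1 to WT4. CKO4 lay just above WT4, with 0.51 on the log2 scale (SE 0.13), or 1.43-fold (95% interval 1.16 to 1.75, limma adjusted p = 0.0489). Ddx18, an RNA helicase, had 9.86, 10.12, 9.99 and 10.08 in CKO1 to CKO4, against 9.67, 9.60, 9.44 and 9.32 in WT1 to WT4. The groups did not overlap, and the difference was 0.51 on the log2 scale (SE 0.11), or 1.42-fold (95% interval 1.20 to 1.68, limma adjusted p = 0.0207). Nip7, a processing factor, had 9.11, 8.92, 9.09 and 9.22 in CKO1 to CKO4, against 8.65, 8.49, 8.42 and 8.77 in WT1 to WT4. CKO2 was the lowest CKO sample and still above WT4, with 0.50 on the log2 scale (SE 0.11), or 1.42-fold (95% interval 1.20 to 1.68, limma adjusted p = 0.0219). Wdr74, a WD repeat protein of precursor processing, rose by 0.41 (SE 0.10, limma adjusted p = 0.0427) and its groups did not overlap.

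Nop2, a ribosomal RNA methyltransferase, had 8.18, 8.54, 8.54 and 8.16 in CKO1 to CKO4, against 8.00, 8.07, 7.59 and 7.75 in WT1 to WT4. The difference of 0.50 (SE 0.14, limma adjusted p = 0.064) was as large as that of Nip7 but missed the threshold. Of the other large subunit genes that did not pass, Grwd1, Rrp1b, Ebna1bp2, Bop1, Noc2l, Noc3l, Pes1, Ftsj3 and Rrs1 differed by 0.43, 0.39, 0.30, 0.30, 0.29, 0.28, 0.23, 0.23 and 0.13. Pes1 and Bop1 are partners in 1 complex of large subunit maturation whose other protein, Wdr12, was under the filter. Across roles, the 22 uncalled genes besides Myc differed by 0.13 to 0.50, with adjusted p of 0.0551 to 0.765 (limma), and 6 of them did not overlap between groups, where 9.19% of all genes tested had every CKO sample above every WT sample. Dimmer probes of the module's genes were tested for 10 genes, 12 probes in all. Differences were above 0 for 11 of them, down to 0.005 for a probe of Ebna1bp2, and 2 rose and 0 fell. The share of all such probes in the series that rose was not counted. The 2 that rose were those of Mybbp1a and Heatr1. For the called genes Gnl3 and Polr1a, the second probes had means of 6.65 and 6.27. They differed by only 0.08 and 0.11 (limma adjusted p = 0.765 and 0.688). Bysl, Nop16 and Wdr12 under the filter differed by 0.01, 0.19 and -0.02. Nolc1, with a mean of 6.31, was the dimmest tested gene, and Bysl, with a mean of 5.96, the brightest untested one. No probe carried the names Wdr43, Wdr75, Utp18, Utp20 and Ddx10.

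**Figure D4:**
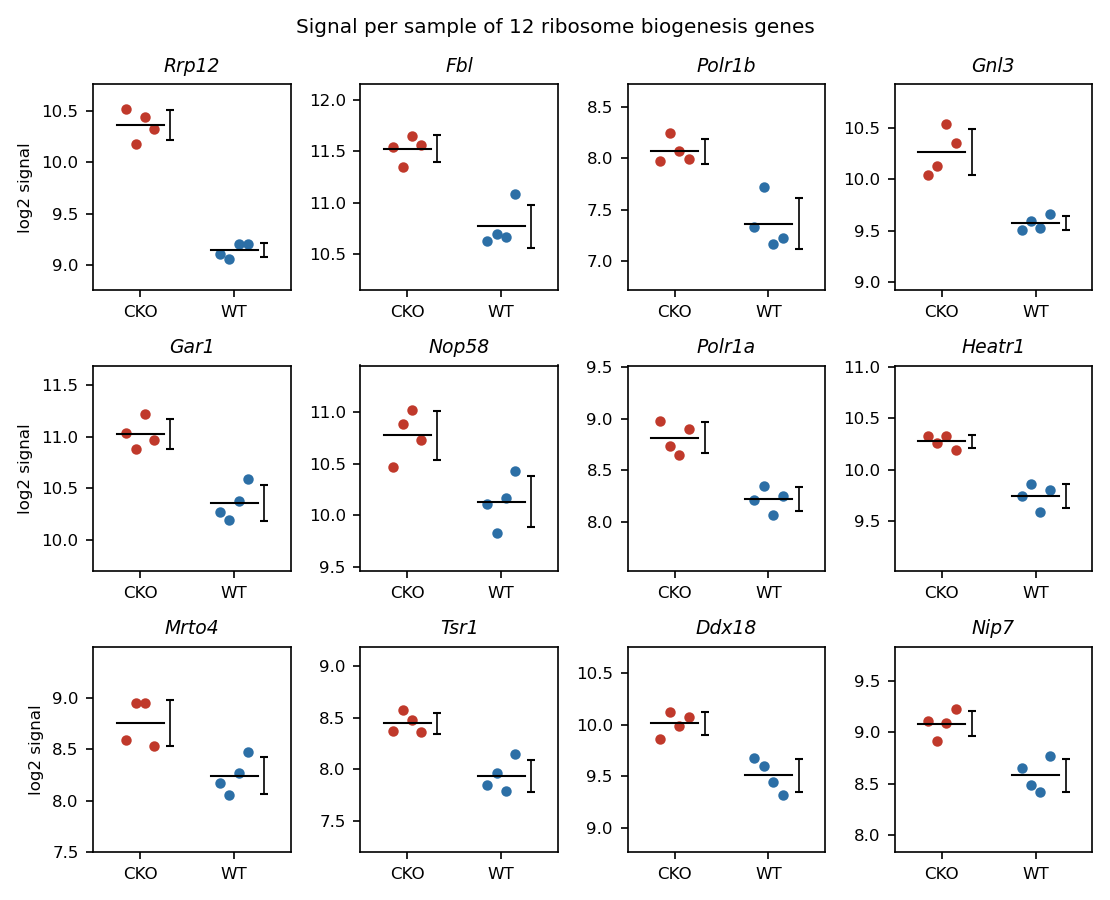
Signal in each sample (y axis, log2 signal) of the 12 called genes with the largest differences, with CKO left of WT (points, samples; lines, group means). In every panel the 4 CKO points lie above the 4 WT points, and the gap is widest for Rrp12.

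The direction was shared by nearly all sample pairs that carry the same number. CKO exceeded WT for 34, 36, 35 and 35 of the 37 genes at numbers 1 to 4, against 47.0% to 50.3% of all genes. Of the 37, 30 were higher at all 4 numbers, Ncl, Noc4l, Pes1, Noc3l, Ftsj3 and Rrs1 at 3, and Myc at 2. The median over the 37 relative to the WT mean was 0.35, 0.34, 0.46 and 0.42 in CKO1 to CKO4, against -0.01, 0.00, -0.05 and 0.05 in WT1 to WT4. All genes stayed within 0.04 of 0 on this measure. CKO1, whose erythroid signal was in the WT range, had a median of 0.35, against 0.34, 0.46 and 0.42 in CKO2 to CKO4. Erythroid signal was otherwise lower in CKO, as was the CD8 T cell sum, but not Cd3d within it. Natural killer cell genes summed to 855 to 918 in CKO against 1078 to 2307 in WT. Of these 4 genes, 2 passed the filter, Klrb1c and Klre1. Klrb1c was at 9.95, 9.91, 6.72 and 8.04 in WT1 to WT4, against 6.6 to 6.8 in CKO. Klre1 averaged 9.395 in CKO and 9.91 in WT. Ncr1 and Klra8, both under the filter, averaged 5.81 and 6.04 in CKO, against 5.86 and 6.02 in WT. Probes that dim cannot show whether natural killer cell content differed, and the sum does not measure it either. Sums for B cell (430 to 505 in CKO, 465 to 736 in WT), neutrophil (623 to 994 in CKO, 727 to 2035 in WT), macrophage or monocyte (338 to 1829 in CKO, 341 to 791 in WT) and dendritic cell genes (1754 to 4926 in CKO, 2617 to 6109 in WT) overlapped, and 0 of 3 CD4 T cell genes passed the filter. The neutrophil gene Camp was the only marker that passed the test, at 6.18 to 6.48 in CKO against 6.96 to 7.33 in WT (limma adjusted p = 0.00345). The part of any of these in the differences was not tested.

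The count of genes that rose depended on single samples. It was 7 without CKO3, 8 without CKO4, 9 without WT1 and 7 without WT3, and 10 to 12 without any other sample. Fbl, Gar1, Gnl3, Heatr1, Polr1a, Polr1b and Rrp12 kept an adjusted p below 0.05 whichever sample was left out. Tsr1 lost it without CKO3, WT1 or WT3, Ddx18 without CKO3, CKO4, WT3 or WT4, and Nip7 without CKO1, CKO3, CKO4, WT1 or WT3. Mybbp1a and Nop58 lost it without any of 6 samples, and Mrto4 and Wdr74 without any of 7. Mrto4 also missed the threshold after a repeated quantile normalization and with no filter (limma adjusted p = 0.0514 and 0.0526), and Mybbp1a and Wdr74 with limma's trend and robust options (limma adjusted p = 0.0546 and 0.0614). With samples 3 and 4 alone, Mrto4, Mybbp1a, Tsr1 and Wdr74 did not pass (limma adjusted p = 0.199, 0.0949, 0.0948 and 0.119). With both samples numbered 2 left out, 13 rose, 12 of them among the 14. With the sample number as a block, 18 rose, the 14 and Ddx21, Nop14, Nop2 and Rrp1b (limma adjusted p = 0.0283, 0.0447, 0.0386 and 0.0361). Calls increased over all genes too: with this block 556 of the 8095 rose and 461 fell, against 383 and 246 in the main fit. With the mean of a gene's probes in place of the brightest, 16 rose, and Nip7, whose second probe was low in both samples numbered 2, did not pass (limma adjusted p = 0.118).

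Ribosome biogenesis genes outside the module were also higher in several cases. Of 115 listed, 85 were tested, and 12 rose, 0 fell and 73 did not pass, which is 14.1% higher against the 4.73% of all genes, with a median of 0.17. At an unadjusted p below 0.05, 30 were higher and 3 lower, and with limma's trend and robust options 12 rose and 0 fell. The difference between this share and that of the module was not tested. Among large subunit factors 7 of 35 rose, led by Nle1, Ppan, Lyar and Rrp15 at 0.77, 0.67, 0.63 and 0.61 (limma adjusted p = 0.00308, 0.00471, 0.0152 and 0.00471). Among small subunit factors 4 of 25 rose, Pno1, Rcl1, Pwp2 and Ltv1, by 0.78, 0.78, 0.48 and 0.43 (limma adjusted p = 0.00121, 0.0109, 0.0293 and 0.024). Of 9 other genes of the RNA polymerase I machinery, Cd3eap, a polymerase subunit, alone rose, by 0.49 (limma adjusted p = 0.00704), and the median was -0.01, while 2 of the 9 rose with the sample number as a block. Of 16 genes for small nucleolar ribonucleoprotein assembly and the RNA exosome, 0 passed in either direction, with 5 higher and 1 lower at an unadjusted p below 0.05, 0 with the trend and robust options and 2 higher with the block. Ruvbl1, an assembly ATPase, came nearest at 0.41 (limma adjusted p = 0.064).

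Other growth genes known as Myc targets were tested for 20 genes, and 10 rose and 1 fell, or 50% higher, where 4.73% of all genes tested rose and 3.04% fell. With the sample number as a block, 15 rose and 1 fell, where 556 of all 8095 genes rose and 461 fell. Apex1, a DNA repair enzyme, rose by 1.21 (2.31-fold, limma adjusted p = 0.00289), Srm, spermidine synthase, by 0.92 (limma adjusted p = 0.00621), C1qbp, a mitochondrial protein, by 0.91 (limma adjusted p = 0.0133) and Tfrc, the transferrin receptor, by 0.70 (limma adjusted p = 0.022). Ccnd2, cyclin D2, fell by 0.47 (limma adjusted p = 0.0488). The list's median was 0.48.

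Of 9 tested genes whose proteins partner or oppose Myc, 0 rose and 2 fell, against 4.73% and 3.04% of all genes tested. Differences were positive for 3 of the 9, and the median was -0.12. Mxd4, a Max-binding repressor, fell by 0.59 (limma adjusted p = 0.0222), and Mlx, a partner of the related Mondo factors, by 0.40 (limma adjusted p = 0.0487). At an unadjusted p below 0.05, 1 was higher, Zbtb17 by 0.26 (limma adjusted p = 0.142). At that level 3 were lower, Mxd4, Mlx and Mxi1, the last by 0.575 (limma adjusted p = 0.0545). With limma's trend and robust options 0 rose and 2 fell. With the sample number as a block 0 rose and 3 fell, where 556 of all 8095 genes rose and 461 fell. Cell cycle genes, 16 of them tested, had 0 calls in either direction and a median of -0.02, with 1 higher and 1 lower at an unadjusted p below 0.05 and 0 calls with the trend and robust options. Ccna2, cyclin A2, differed by -0.61 (limma adjusted p = 0.106).

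**Figure D5:**
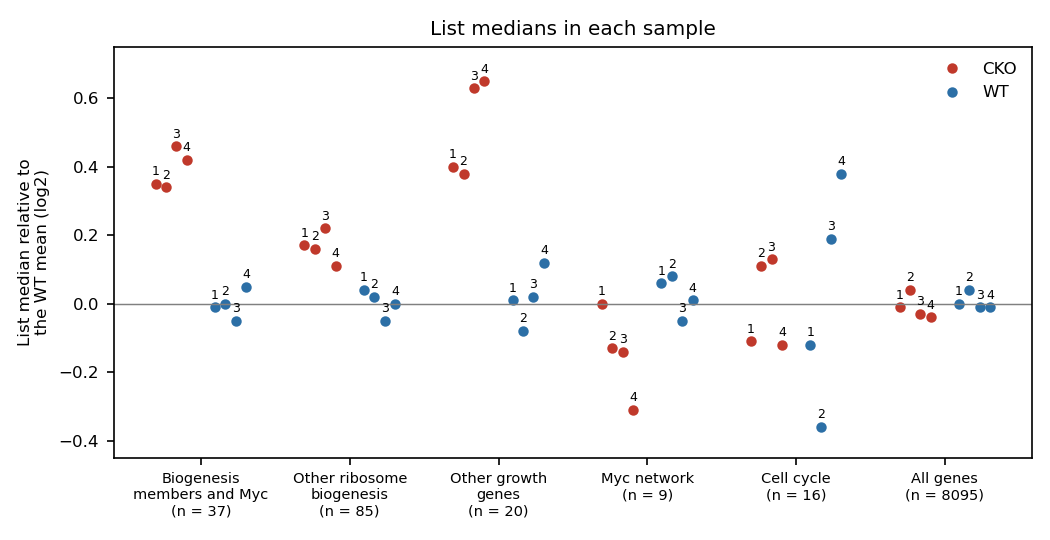
Median of each gene list in each sample relative to the WT mean (y axis, log2 signal; numbers beside points are sample numbers; CKO left of WT within each list). The 4 CKO samples lie above the 4 WT samples for the biogenesis genes with Myc, for other ribosome biogenesis genes and for other growth genes, while the CKO and WT samples overlap for cell cycle genes.

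Genes outside these lists that followed the module most closely over the 8 arrays were Ttc27, Zc3h12d, Pabpc4, Map4k4 and Poglut2, with Pearson r of 0.992, 0.991, 0.989, 0.986 and 0.986 to the mean of the 37, among 7907 searched. The 8 points share the difference between CKO and WT. After removing the group means, r was 0.93, 0.85, 0.90, 0.75 and 0.78 in the same order.

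The promoter sequences of genes that rose together are given because the members differ in what they hold upstream of the start. These are the 250 bases before the annotated start of the 4 called genes with the largest differences that the RefSeq promoter table (GRCm38.p6) holds, and of Nop2, the uncalled gene nearest the threshold of those holding a Myc-type E-box. They were chosen after the values were seen, since no called gene in the table held CACGTG in these 250 bases. Rrp12, Fbl and Myc are not shown. Capitals mark the E-box CACGTG, the ETS-type motif CCGGAAG and the GC box GGGCGG on either strand. Coordinates are chr2:129100746-129100995 (plus strand) for Polr1b, chr14:31019132-31019381 (minus strand) for Gnl3, chr3:129831397-129831646 (minus strand) for Gar1, chr1:59684756-59685005 (plus strand) for Nop58 and chr6:125131633-125131882 (plus strand) for Nop2.
Polr1b: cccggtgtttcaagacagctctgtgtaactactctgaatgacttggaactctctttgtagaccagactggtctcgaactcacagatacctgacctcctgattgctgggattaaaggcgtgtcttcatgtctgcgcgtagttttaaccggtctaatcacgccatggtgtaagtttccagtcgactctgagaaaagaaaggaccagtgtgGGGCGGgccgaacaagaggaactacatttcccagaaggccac
Gnl3: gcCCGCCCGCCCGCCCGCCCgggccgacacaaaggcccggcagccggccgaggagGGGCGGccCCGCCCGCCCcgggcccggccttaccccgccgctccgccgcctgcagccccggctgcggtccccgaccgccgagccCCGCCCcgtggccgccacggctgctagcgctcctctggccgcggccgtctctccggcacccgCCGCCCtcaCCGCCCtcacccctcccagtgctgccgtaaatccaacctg
Gar1: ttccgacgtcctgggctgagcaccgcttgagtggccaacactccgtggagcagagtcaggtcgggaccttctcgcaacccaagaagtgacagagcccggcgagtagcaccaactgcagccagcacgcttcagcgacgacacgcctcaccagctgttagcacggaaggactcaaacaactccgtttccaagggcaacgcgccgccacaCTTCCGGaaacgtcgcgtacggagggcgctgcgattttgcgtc
Nop58: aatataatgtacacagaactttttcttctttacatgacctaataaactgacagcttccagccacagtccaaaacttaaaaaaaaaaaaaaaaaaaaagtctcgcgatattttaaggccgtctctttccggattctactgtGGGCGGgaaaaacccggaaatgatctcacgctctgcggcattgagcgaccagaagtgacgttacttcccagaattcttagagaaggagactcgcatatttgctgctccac
Nop2: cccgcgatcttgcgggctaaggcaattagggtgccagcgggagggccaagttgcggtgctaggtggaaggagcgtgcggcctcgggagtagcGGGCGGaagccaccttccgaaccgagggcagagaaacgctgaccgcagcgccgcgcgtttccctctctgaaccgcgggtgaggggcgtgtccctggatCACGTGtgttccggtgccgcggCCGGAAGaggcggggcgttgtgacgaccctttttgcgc

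Of the 48 genes, 42 had an entry, among them 32 tested ones and 12 that rose. CACGTG stood in 2 of the 32, Imp4 and Nop2, or 6.2%, against 10.1% of the 6655 promoters of tested genes, and in 0 of the 12. CCGGAAG stood in 9 of the 32, or 28.1%, against 16.5%, and 4 of the 9 had risen, Gar1, Heatr1, Nip7 and Wdr74. Its shorter core CGGAAG, which every CCGGAAG contains, stood in 14, or 43.8%, against 29.7%. GGGCGG stood in 62.5% against 62.0%, TATAA in 15.6% against 16.4% and CCAAT in 28.1% against 41.3%. Of 2 motifs like those bound by Blimp-1, which can overlap each other, AGNGAAAG stood in 4, or 12.5%, against 8.0%, and GTGAAAG in 0 of the 32 against 3.8%. Both strands were searched for these 8 motifs. A match is a description of letters in the window and shows no binding.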

How the data were processed

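RNA of 8 samples (4 CKO, 4 WT) was measured on 1-colour arrays. The deposited values were log2 signals, normalized by the authors, with scanner, background correction and normalization method not given in the sources used here. Probe symbols came from the platform annotation, updated through a RefSeq table. Probes whose mean over the 8 arrays was above the median of all probes were tested with limma 3.58.1 (lmFit and eBayes, R 4.3.3), CKO minus WT, two-sided, with Benjamini-Hochberg adjustment over 11991 probes and a threshold of 0.05. The brightest probe stood for a gene. The code was tested on simulated data. The number of arrays limits the precision.

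The members and lists were chosen with earlier results of these data known. Named genes were Myc, every called member (12 with values in each sample), the uncalled member of smallest p per role, up to 4 called genes per list (or the 1 of smallest p), and the 5 genes most alike; members with values outside this rule (Nop56, Nop10 and others) were chosen after their values were seen. The main fit was unpaired. Same-numbered samples deviated together (correlations of 0.326, 0.467, 0.181 and 0.225 for numbers 1 to 4, all above 0.1), so the number was used as a block in an alternative fit. However, CKO4 and WT3 (0.255) and CKO3 and WT4 (0.264) correlated more than the same-numbered samples 3 and 4. For these the correlations do not single out the pairing by number. Alternatives were other normalizations, filters and offsets, the block, limma's trend and robust options, the mean of a gene's probes, and samples left out.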

Additional observations from a re-analysis of the deposited data

Results flagged for a closer look

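Of 74 groups of 4 samples (37 genes, CKO and WT), 9 held 1 sample far from the other 3, where chance gives about 5% of groups. The samples numbered 2 account for 5 of the 9 as low values. Nop56 was low in CKO2 (6.88) and in WT2 (6.49), Nop10 was low in CKO2 (10.73) and in WT2 (10.53), and Nhp2 was low in CKO2 (9.79). The 18S control probe was low in the same samples; its part was not tested. A high value of Bop1 stood in CKO2 (9.92). High values in WT were Fbl in WT4 (11.08), Ebna1bp2 in WT4 (10.54) and Nop14 in WT1 (9.05).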

How the results depend on the processing

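None of the 14 called genes changed sign in any alternative that fitted it, 19 for each but Mybbp1a, which was fitted in 18. With samples numbered 1 and 2 alone (2 against 2), 0 of the 37 rose, 11 of all genes rose and 8 fell, and 0 of the other biogenesis genes rose, while the count of all genes that fell was 461 with the replicate block and 407 with samples 3 and 4 alone. Leaving out 1 sample gave 7 to 12 of the 37 higher, 190 to 419 of all genes higher and 101 to 340 lower, and 7 to 12 other biogenesis genes higher and 0 to 1 lower. That 1 lower gene was Pih1d1, called without CKO2, without both samples numbered 2, and with samples 3 and 4 alone (1 in each). The Myc difference ranged from -0.064 to 0.093 and that of Nop56 from -0.10 to 0.689 when 1 sample was left out, and Pes1 was at -0.019 with samples 1 and 2 alone; the cause was not tested. The pairing by sample number (replicate block) gave 18 of the 37 higher and 17 other biogenesis genes higher, with 556 of all 8095 genes higher. With no filter on dim probes 13 of 41 rose and with the filter at the 75th percentile 14 of 31, and in the remaining settings 12 to 16 of the 37. Probes with a mean under the median of all probes were not tested in the main setting.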
